A study of Homo sapiens with 42 samples.

Results

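Lung mesenchyme identity genes are 10 genes that mark, or are made by, the connective tissue cells of the lung. They comprise the transcription factors TBX2, TBX4, TBX5, TCF21 and FOXF1, the secreted signals WNT2, FGF10, FGF7 and CXCL12, and the receptor PDGFRA. All 10 were found among the 28266 symbols of the count table. They were chosen by their role and with their measured fold changes under 4OHT and bleomycin, control shRNA, already known, so those fold changes are given as a description without a test. The same response was tested in other libraries, those that express a COPB2 shRNA. They had the same treatments and these shRNAs changed few genes, so the tests repeat the response on which the genes were chosen. They are no independent support for it. The study sequenced poly(A) RNA of human lung fibroblasts in 42 libraries and 12 groups to ask how loss of coatomer affects normal and senescent cells. IMR90 is an established strain of foetal lung fibroblasts, and the ER:RAS line is IMR90 that carries, from a retrovirus, a RAS oncogene fused to the oestrogen receptor hormone-binding domain. ER:RAS cells received DMSO or 100 nM 4-hydroxytamoxifen (4OHT), which switches the fusion on and leads to oncogene-induced senescence (OIS), with 3 libraries in each of 6 groups. IMR90 cells without the fusion received DMSO or 50 µg/ml of the DNA-breaking drug bleomycin for 24 h, with 4 libraries in each of 6 groups. All cells grew for 7 days and then received 1 µg/ml doxycycline for 72 h to induce a control shRNA, COPB2 shRNA 1 or COPB2 shRNA 2, and all were collected at day 10. The models therefore differ in the line, the trigger and its duration, and these cannot be told apart. A figure legend of the study on these knockdowns describes replicates as independent experiments, while no label says so. That legend gives n = 3 also for bleomycin-treated IMR90 cells, where 4 libraries per group are used here. The p-values measure the spread between these libraries.

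During lung development the T-box factors TBX2, TBX4 and TBX5 are switched on in the mesenchyme around the airway buds, where TBX4 and TBX5 are needed for FGF10 expression and TBX2 keeps mesenchymal cells dividing. FOXF1 is a forkhead factor that answers hedgehog signals from the epithelium, and TCF21 is a basic helix-loop-helix factor of lung and kidney mesenchyme. WNT2 instructs the foregut endoderm through beta-catenin, FGF10 drives airway branching through the epithelial receptor FGFR2, and FGF7 acts on the same receptor as a growth factor of epithelial cells. CXCL12 is a chemokine read by CXCR4 and ACKR3, and PDGFRA is the receptor for PDGF-A that marks many lung fibroblasts and their precursors.

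Total counts ran from 13148194 to 23597310 per library. COPB2, the target of both shRNAs, was at 266.9 to 620.2 CPM in the 14 control libraries and at 33.9 to 122 CPM in the 28 that express a COPB2 shRNA, with no overlap. CPM are counts scaled to a library of 1000000 after TMM normalisation. Each of 16 general fibroblast markers was above 1 CPM in every library. The epithelial markers SFTPB, SFTPC, NKX2-1 and SCGB1A1 had at most 3 counts in any library. The keratins of the same list were present, KRT8 at 12.6 to 59.8, KRT18 at 37.9 to 233.3 and KRT19 at 1.01 to 47.8 CPM. Among positional genes of fibroblasts from other sites, HOXA13, HOXD10 and EN1 had at most 3 counts, while PITX1 was at 35.7 to 239.9 CPM. The 3 bleomycin libraries numbered 4, 1 for each shRNA, stood apart: CXCL8, an inflammatory chemokine of senescent cells, had 22103 to 184139 counts there and 645 to 4404 in the other 9 bleomycin libraries. Tested bleomycin results of TCF21 and FGF7 are given with and without replicate 4. For the other genes only the number called is given both ways. In bulk RNA, fewer cells that express a gene and less RNA per cell cannot be told apart.

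The promoters of the 4 genes that show the range of responses are given first, as the 250 bases before the annotated start in RefSeq (GRCh38.p14), 5' to 3' on the strand of the gene, with each CG pair in capitals. Promoter entries were found for 8 of the 10 genes, and TBX2 and FOXF1 are named only. TBX5 has 2 annotated starts, and the stretch shown is that of the first, which lies within the span of the gene. WNT2 (chr7:117323059-117323308, minus strand) and CXCL12 (chr10:44385098-44385347, minus strand) had the lowest counts relative to DMSO under 4OHT, FGF7 (chr15:49422992-49423241, plus strand) did not separate in most comparisons, and TBX5 (chr12:114408013-114408262, minus strand) shares its start region with an antisense RNA. 
WNT2: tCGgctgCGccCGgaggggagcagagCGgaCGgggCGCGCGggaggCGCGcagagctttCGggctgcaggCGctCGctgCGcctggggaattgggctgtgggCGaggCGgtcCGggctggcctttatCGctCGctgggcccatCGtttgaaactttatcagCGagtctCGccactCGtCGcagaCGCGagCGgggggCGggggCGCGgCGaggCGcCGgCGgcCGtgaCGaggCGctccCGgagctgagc
CXCL12: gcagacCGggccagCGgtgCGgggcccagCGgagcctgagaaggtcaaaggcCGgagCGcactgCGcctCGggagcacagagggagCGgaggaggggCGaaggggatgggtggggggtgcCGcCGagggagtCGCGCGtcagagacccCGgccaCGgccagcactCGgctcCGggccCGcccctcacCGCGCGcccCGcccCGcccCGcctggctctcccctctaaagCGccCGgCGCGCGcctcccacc
FGF7: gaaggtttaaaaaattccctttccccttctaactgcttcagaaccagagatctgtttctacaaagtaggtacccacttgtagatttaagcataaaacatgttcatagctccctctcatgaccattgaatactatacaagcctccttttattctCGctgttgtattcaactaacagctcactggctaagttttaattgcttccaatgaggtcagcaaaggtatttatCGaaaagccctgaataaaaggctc
TBX5: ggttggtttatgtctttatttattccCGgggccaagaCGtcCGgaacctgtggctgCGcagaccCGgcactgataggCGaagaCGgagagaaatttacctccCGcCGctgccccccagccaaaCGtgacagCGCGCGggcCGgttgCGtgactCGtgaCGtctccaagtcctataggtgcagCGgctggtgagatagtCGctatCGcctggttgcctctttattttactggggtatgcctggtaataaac

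The WNT2 stretch held 38 CG pairs, that of CXCL12 31, that of TBX5 20 and that of FGF7 2. The stretch before the second TBX5 start, not shown, held 13. Over the full window of 300 bases, which adds the 50 bases after the start, the ratio of observed to expected CG pairs was 1.12 for WNT2 and 0.879 for CXCL12. It was 0.951 for TBX5, 0.793 at its second start, and 0.354 for FGF7, against a median of 0.577 over 34943 promoters. The ratio was also low for TCF21, at 0.402, and for FGF10, at 0.492, so the genes that were lower under 4OHT lay on both sides of that median. Searched on both strands, the T-box element AGGTGTGA, which is in 0.98% of all promoters, was in none of the windows of the 8 genes. The forkhead letters TGTTTAC, in 3.42% of promoters, were found once among them, in the FGF10 window 25 bases after the start. The E-box CAGCTG, in 17.94% of promoters, was found at the second PDGFRA start, 69 bases before it.

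On GRCh38.p14 the annotation places TBX2 on chromosome 17 from 61399843 to 61409466, TBX4 on chromosome 17 from 61452422 to 61485110, TBX5 on chromosome 12 from 114353911 to 114408442, TCF21 on chromosome 6 from 133889113 to 133895537 and FOXF1 on chromosome 16 from 86510527 to 86515422. It places WNT2 on chromosome 7 from 117275451 to 117323058, FGF10 on chromosome 5 from 44300247 to 44389420, FGF7 on chromosome 15 from 49423242 to 49488775, CXCL12 on chromosome 10 from 44370165 to 44385097 and PDGFRA on chromosome 4 from 54229293 to 54298245. TBX2 and TBX4 are next to each other, 43.0 kb apart, and FGF7 lies within the span of FAM227B. The table names genes by symbol only, so all coordinates are those of the annotation and not of the alignment.

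How abundant the genes were in cells that were not senescent was read per length, as CPM per kilobase of exon, in the control libraries with DMSO. Among ER:RAS libraries FOXF1 was highest at 69.8 ± 9.39 CPM per kb (SD, n = 3), followed by TBX2 at 32.8 ± 8.11 and PDGFRA at 31.6 ± 5.84, which differed by less than their spread. TCF21 followed at 21.2 ± 7.52, CXCL12 at 10.1 ± 2.91, and TBX5 at 7.44 ± 1.97 and WNT2 at 7.03 ± 1.09 did not differ beyond their spread. FGF7 was at 3.502 ± 2.92 and TBX4 at 2.33 ± 0.862, with the difference between them within the spread of FGF7, and FGF10 was lowest at 0.512 ± 0.178 CPM per kb. IMR90 cells with DMSO had the same gene at the top, FOXF1 at 57.7 ± 3.73 CPM per kb (SD, n = 4), and the same gene at the bottom, FGF10 at 2.66 ± 1.12, which differed from TBX4 at 3.08 ± 0.7503 by less than their spread. There PDGFRA at 50.2 ± 12.3 differed from FOXF1 by less than its own spread, and WNT2 at 17.04 ± 2.03 within that of CXCL12 at 16.9 ± 2.98. After 4OHT the order kept FOXF1, at 77.8 ± 17.6, and TBX2, at 42.5 ± 8.93 CPM per kb, on top, and WNT2 was last with no count in any library. After bleomycin FOXF1 was again first, at 53.5 ± 4.62, and FGF10 last, at 0.0372 ± 0.0457 CPM per kb. The order depends on the division by length. In plain CPM, PDGFRA led among the ER:RAS control libraries with DMSO at 302.1, before FOXF1 at 245.8 and TBX2 at 199.3. There 7 of the 10 genes kept their rank.

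**Figure D1:**
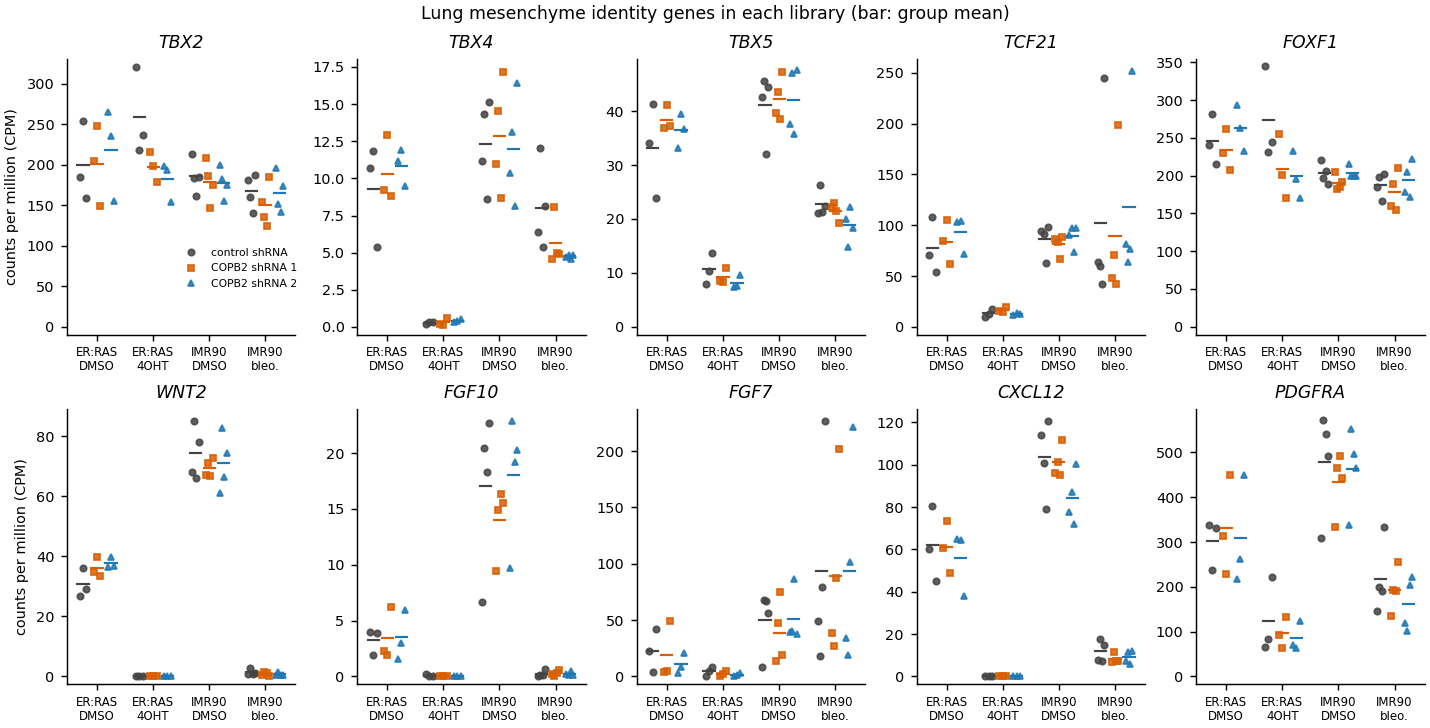
Level of each of the 10 genes (CPM, linear axes from 0) in every library, by line and treatment on the horizontal axis and by shRNA as symbol, and bars are group means. TBX2 and FOXF1 lie at like levels in all 4 states, WNT2 and FGF10 are near 0 in both senescent states, and CXCL12 is near 0 with 4OHT and at 5.94 to 17.5 CPM with bleomycin.

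The first question was how far each gene differed between senescent and DMSO-treated cells. In the libraries with the control shRNA, 8 of the 10 genes had a lower fitted level with 4OHT, with a median log2 fold change of -2.52 beside -0.08 over all 14297 genes tested. With bleomycin, 8 of the 10 were also lower, with a median of -0.77 beside -0.01 over all 14783 genes. Scaling by DESeq2 size factors moved the median of all genes under 4OHT to 0.04, so differences are to be read against a shift of that size.  Over all genes the test called 15.5% higher and 20.2% lower with 4OHT, and 15.4% higher and 15.8% lower with bleomycin. The members were chosen on these contrasts, so nothing is read from how many of them differed.

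Among the transcription factors, TBX4, TBX5 and TCF21 were lower after 4OHT, and the ranges of TBX2 and FOXF1 overlapped. TBX4 was at 10.7, 11.8 and 5.39 CPM in the 3 ER:RAS libraries with DMSO and the control shRNA, and at 0.181, 0.3304 and 0.317 with 4OHT, which is 2, 5 and 5 counts. The ranges were far apart, and the fitted difference was -5.09 ± 0.49 on the log2 scale (SE), the scale of all differences below. In IMR90 cells TBX4 was at 11.2, 14.4, 8.61 and 15.1 CPM with DMSO and 6.41, 12.04, 5.403 and 8.14 with bleomycin. Here the ranges overlapped, since the second bleomycin library was above the lower DMSO libraries, and the difference was -0.66 ± 0.28. Where the response was tested, in the libraries with a COPB2 shRNA, TBX4 fell with 4OHT. It was at -5.05 ± 0.49 with shRNA 1 (adjusted p = 1.09e-06) and at -4.73 ± 0.47 with shRNA 2 (adjusted p = 1.59e-06). It also fell with bleomycin, at -1.22 ± 0.28 (adjusted p = 0.00166) and -1.38 ± 0.28 (adjusted p = 0.00059).

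TBX5 was at 34.1, 41.2 and 23.9 CPM with DMSO and 7.94, 10.4 and 13.6 with 4OHT in ER:RAS cells, a difference of -1.71 ± 0.26. In IMR90 cells it was at 42.6, 45.5, 31.99 and 44.4 CPM with DMSO and 21.2, 26.3, 21.3 and 22.5 with bleomycin, a difference of -0.88 ± 0.15. Both pairs of ranges were separate, and every senescent library kept between 7.32 and 26.3 CPM, so the transcript stayed well above the floor of 3 counts, which is 0.110 to 0.271 CPM. With COPB2 shRNA 1 and 2, TBX5 fell, at -2.12 ± 0.27 and -2.21 ± 0.27 with 4OHT (adjusted p = 1.59e-05 and 1.12e-05). The corresponding decreases with bleomycin were -1.01 ± 0.16 and -1.20 ± 0.16 (adjusted p = 2.81e-05 and 4.1e-06).

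TCF21 was lower with 4OHT and spread widely with bleomycin. With the control shRNA it was at 71.2, 108 and 54.2 CPM with DMSO and 9.75, 12.2 and 17.9 with 4OHT in ER:RAS cells, separate ranges and a difference of -2.62 ± 0.30. In IMR90 cells it was at 93.9, 91.1, 62.8 and 97.9 CPM with DMSO and 63.4, 60.4, 41.8 and 245 with bleomycin, and the difference was 0.22 ± 0.51. The bleomycin replicates 1 to 3 lay at or below most DMSO libraries, while replicate 4 lay above all of them. With the COPB2 shRNAs TCF21 fell with 4OHT, at -2.39 ± 0.30 and -2.96 ± 0.31 (adjusted p = 1.52e-05 and 2.34e-06). With bleomycin it was not called, at 0.12 ± 0.51 (adjusted p = 0.891) and 0.37 ± 0.51 (adjusted p = 0.596), and without replicate 4 in all IMR90 groups the values turned to -0.56 ± 0.24 (adjusted p = 0.11) and -0.24 ± 0.24 (adjusted p = 0.499).

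TBX2, the neighbour of TBX4, was at 185, 254 and 159 CPM with DMSO and 320.4, 219 and 237 with 4OHT, and at 214, 183, 162 and 185 with DMSO and 181, 160.3, 140.0 and 187 with bleomycin. FOXF1 was at 241, 281 and 215 CPM with DMSO and 345, 232 and 245 with 4OHT, and at 220.1, 197, 206 and 189 with DMSO and 185, 198, 166 and 203 with bleomycin. All 4 pairs of ranges overlapped. Over all shRNAs the lowest of the 42 libraries had 124 CPM of TBX2 and 155 CPM of FOXF1, so both remained abundant in every senescent culture. With 4OHT the tested differences of TBX2 were -0.09 ± 0.22 with COPB2 shRNA 1 and -0.34 ± 0.22 with shRNA 2 (adjusted p = 0.784 and 0.251). Those of FOXF1 were -0.24 ± 0.18 and -0.48 ± 0.18 (adjusted p = 0.331 and 0.0517). With the replicate number as a block the second FOXF1 value was called, at -0.48 ± 0.14 (adjusted p = 0.00948). With bleomycin neither gene was called, and the values lay between -0.29 and -0.11.

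The signals showed the largest differences, with WNT2 at no count. In ER:RAS cells with DMSO and the control shRNA WNT2 had 527, 568 and 605 counts, or 26.8, 35.98 and 29.1 CPM, and with 4OHT it had none in all 3 libraries. Set against the floor of 3 counts in each library, its level was at least 139.5-fold lower. With COPB2 shRNA 1 it again had no count in any 4OHT library, at least 186-fold lower, and with shRNA 2 it had 2, 0 and 0 counts. The ratio with shRNA 2 was 884 (95% exact interval 244 to 7307, counting error only). The test called WNT2 lower with both shRNAs (adjusted p = 2.89e-07 and 4.31e-07). In IMR90 cells WNT2 went from 68.2, 84.9, 65.9 and 78.1 CPM with DMSO to 0.909, 2.75, 0.6897 and 1.04 with bleomycin, which is 19, 48, 12 and 20 counts. These ranges were also far apart, at -5.82 ± 0.43 on the log2 scale, but all 12 bleomycin libraries held at least 6 counts. With the COPB2 shRNAs WNT2 fell, at -6.48 ± 0.45 and -6.65 ± 0.46 with bleomycin (adjusted p = 1.06e-09 and 9.38e-10).

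CXCL12 followed WNT2 in ER:RAS cells. It had 1184, 1272 and 933 counts with DMSO, or 60.3, 80.6 and 44.9 CPM, and 2, 0 and 1 counts with 4OHT, a ratio of 844 (95% exact interval 289 to 4095). The 4OHT libraries with a COPB2 shRNA had 0 to 4 counts, and the fit gave decreases of -8.31 ± 0.64 and -8.50 ± 0.66 (adjusted p = 1.12e-07 and 1.07e-07). No 4OHT library therefore had more than a few reads of this chemokine. In IMR90 cells CXCL12 went from 114, 101, 79.1 and 121 CPM with DMSO to 7.800, 17.5, 7.24 and 14.98 with bleomycin, separate ranges and a difference of -3.16 ± 0.28. With the COPB2 shRNAs it fell with bleomycin, at -3.65 ± 0.29 and -3.24 ± 0.28 (adjusted p = 7.64e-09 and 2.73e-08).

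FGF10, the least abundant of the set, had 78, 31 and 81 counts with DMSO and 2, 0 and 0 with 4OHT in ER:RAS cells, a ratio of 70.99 (95% exact interval 19.4 to 590.4). With a COPB2 shRNA no 4OHT library had a count, which put FGF10 at least 17.9-fold lower with shRNA 1 and at least 18.1-fold lower with shRNA 2 (adjusted p = 0.000298 and 0.000294). In IMR90 cells FGF10 went from 6.64, 20.5, 18.3 and 22.7 CPM with DMSO to 0.0479, 0.115, 0.115 and 0.674 with bleomycin, or 1, 2, 2 and 13 counts. The highest bleomycin library was replicate 4, and the difference was -6.16 ± 0.59. With the COPB2 shRNAs FGF10 fell, at -5.58 ± 0.57 and -6.31 ± 0.60 with bleomycin (adjusted p = 2.38e-07 and 7.65e-08).

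FGF7 varied widely within groups. With the control shRNA it was at 22.2, 4.12 and 42.1 CPM with DMSO and 0.271, 4.49 and 8.804 with 4OHT in ER:RAS cells, ranges that overlapped, and the difference was -2.42 ± 1.31. In IMR90 cells it was at 8.195, 67.8, 67.3 and 55.96 CPM with DMSO and 49.2, 18.3, 79.2 and 226 with bleomycin, again overlapping, and replicate 4 was far above the others. With the COPB2 shRNAs the differences with 4OHT were -3.06 ± 1.35 and -2.88 ± 1.36 and were not called (adjusted p = 0.0903 and 0.113). Same-numbered libraries of these groups deviated together. With the replicate number as a block shared by all ER:RAS groups, FGF7 was called lower, at -2.75 ± 0.79 (adjusted p = 0.00891) and -2.86 ± 0.83 (adjusted p = 0.0092). With bleomycin FGF7 was not called, at 1.16 ± 0.80 and 0.85 ± 0.80 (adjusted p = 0.287 and 0.419). Without replicate 4 in all IMR90 groups these values were 0.16 and -0.12 (adjusted p = 0.915 and 0.926).

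PDGFRA, the receptor, was lower in both models and stayed abundant. It was at 338, 238 and 331 CPM with DMSO and 66.7, 84.7 and 223 with 4OHT in ER:RAS cells, a difference of -1.35 ± 0.50 with separate ranges. In IMR90 cells it was at 309.8, 572, 541 and 493 CPM with DMSO and 146, 199.5, 191 and 335 with bleomycin, a difference of -1.17 ± 0.28, and here replicate 4 of the bleomycin group was above replicate 1 of the DMSO group. With the COPB2 shRNAs PDGFRA fell with 4OHT, at -1.85 ± 0.51 and -1.92 ± 0.51 (adjusted p = 0.00911 and 0.00758). Its decreases with bleomycin were -1.19 ± 0.28 and -1.56 ± 0.28 (adjusted p = 0.00186 and 0.000158).

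**Figure D2:**
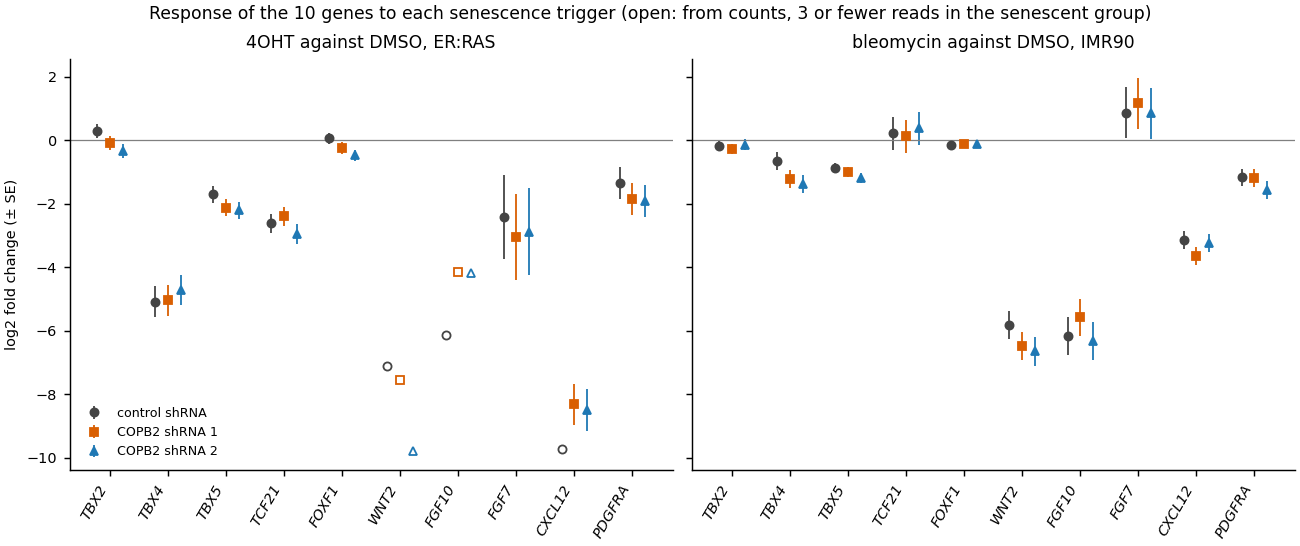
Log2 fold change (vertical axis) of each of the 10 genes under 4OHT in ER:RAS cells (left) and bleomycin in IMR90 cells (right), with each shRNA as a symbol. Bars are the SE derived from the F statistic of the edgeR test. Open symbols, drawn without bars, are bounds against 3 counts per library where no senescent library had a count and ratios of counts where a group had 1 to 3. TBX2 and FOXF1 sit near 0 in both panels. TBX4, TBX5, TCF21, WNT2, CXCL12 and FGF7 sit lower on the left than on the right, and PDGFRA sits slightly lower.

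Counted over the libraries with a COPB2 shRNA, 7 of the 10 genes fell with 4OHT with shRNA 1 and 7 with shRNA 2, the same 7 in both: TBX4, TBX5, TCF21, WNT2, FGF10, CXCL12 and PDGFRA. Over all genes tested, 21.5% and 22% were called lower in these comparisons. With the replicate number as a block the counts were 8 and 9, with FGF7 added for both shRNAs and FOXF1 for shRNA 2. That fit called 4270 and 4246 of 14297 genes lower. With bleomycin 6 of the 10 fell with each shRNA, the same 6: TBX4, TBX5, WNT2, FGF10, CXCL12 and PDGFRA. The share of all genes called lower was 17.8% and 18.3%. None of the 10 was called higher in any of these 4 comparisons. The counts repeat, in other libraries, the response on which the genes were chosen. Without replicate 4 in all IMR90 groups, 6 were again called lower with bleomycin with each shRNA. That fit called 1741 of 14771 genes lower with shRNA 1 and 1893 with shRNA 2.

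Whether the responses differ in size was tested as the 4OHT response in ER:RAS cells minus the bleomycin response in IMR90 cells. With COPB2 shRNA 1, 6 of the 10 genes were called lower in this difference, where 11.9% of 15299 genes were. With shRNA 2 it was 5 of 10, against 12.5%. The genes were chosen with both responses known, so these counts are a description. CXCL12 had the firmest difference, -4.64 ± 0.59 with shRNA 1 and -5.26 ± 0.60 with shRNA 2 (adjusted p = 4.38e-07 and 7.57e-08). TBX4 followed with -3.80 ± 0.51 and -3.33 ± 0.50 (adjusted p = 1.23e-06 and 7.67e-06). Both genes thus fell further with 4OHT than with bleomycin. TCF21 differed by -2.48 ± 0.68 and -3.30 ± 0.69 (adjusted p = 0.0087 and 0.000665). Without replicate 4 in all IMR90 groups it still differed, by -1.69 ± 0.37 and -2.58 ± 0.37 (adjusted p = 0.00157 and 1.23e-05). TBX5 differed by -1.08 ± 0.26 and -0.99 ± 0.26 (adjusted p = 0.00261 and 0.00564).

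WNT2 was also called, with both shRNAs (adjusted p = 0.0017 and 0.0233), but its fitted size depends on libraries with 0 to 2 counts and is no bound. With shRNA 2 that call was lost without 4OHT replicate 2 (adjusted p = 0.0935), without 4OHT replicate 3 (0.123) or without bleomycin replicate 2 (0.0629). FGF7 was called with shRNA 1 only, at -4.16 ± 1.495 (adjusted p = 0.0489), and stood at -3.67 ± 1.51 with shRNA 2 (adjusted p = 0.09). The first call was lost when any of 8 of the 14 libraries was left out, namely bleomycin replicates 3 and 4, IMR90 DMSO replicates 1, 2 and 4, 4OHT replicates 1 and 2 and ER:RAS DMSO replicate 3, with adjusted p between 0.0619 and 0.402. It was also lost without replicate 4 in all IMR90 groups (adjusted p = 0.204). FGF10 was not called in the difference (adjusted p = 0.262 and 0.386). It had no count with 4OHT and a COPB2 shRNA, so its fall there is known only as at least 17.9-fold and 18.1-fold. The test therefore cannot decide whether the responses of FGF10 differ. TBX2, FOXF1 and PDGFRA were not called either. The difference of PDGFRA was -0.62 ± 0.51 and -0.33 ± 0.51.

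**Figure D3:**
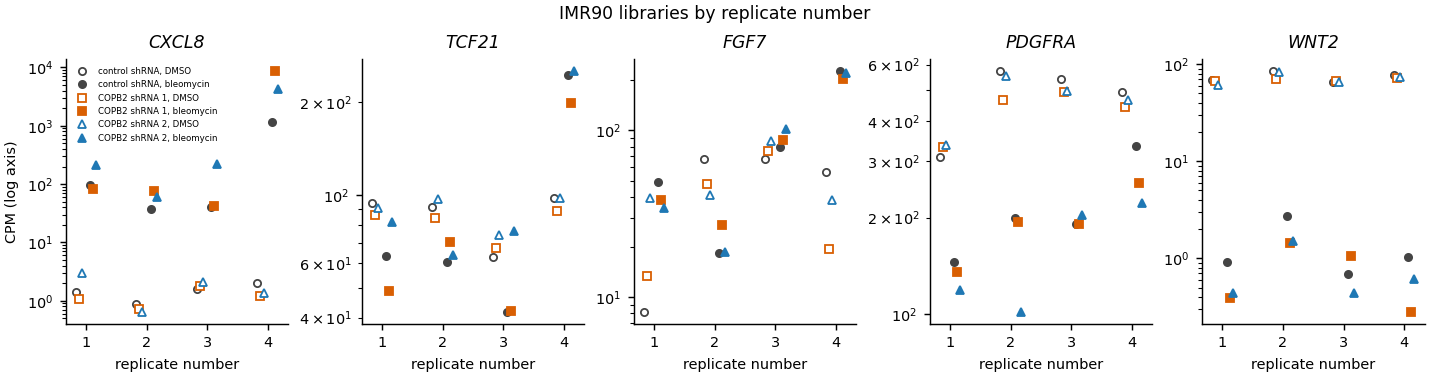
CPM on log axes in the 24 IMR90 libraries by replicate number, with open symbols for DMSO and filled symbols for bleomycin. The bleomycin libraries numbered 4 have the highest CXCL8 (1145 to 8645 CPM), TCF21 (199 to 252 CPM) and FGF7 (202 to 226 CPM), and in WNT2 they overlap the other bleomycin libraries.

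The bleomycin libraries numbered 4 carried more of some identity genes than the rest. TCF21 was at 199 to 252 CPM in these 3 libraries and at 41.8 to 81.3 in the other 9, and the 12 DMSO libraries were at 62.8 to 97.9. FGF7 was at 202 to 226 CPM in these 3 and at 18.3 to 101 in the other 9. PDGFRA was at 222 to 335 CPM against 102 to 204. The ranges were separate for these 3 genes, which are named for that reason, while those of TBX2, TBX4, TBX5, FOXF1 and FGF10 overlapped. How many of all genes separate these libraries was not counted, so nothing is read from the number. The DMSO libraries numbered 4 had CXCL8 at 1.22 to 2.00 CPM, within the 0.650 to 3.03 CPM of the other DMSO libraries. CXCL12 in replicate 4 lay within the range of the other bleomycin libraries, and WNT2, at 0.282 to 1.04 CPM, overlapped their 0.395 to 2.75 CPM. What sets these 3 libraries apart was not tested.

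Loss of COPB2, a subunit of the COPI coat of Golgi vesicles, was then compared with the control shRNA in each of 4 cell states. No member of the set was called in any of the 8 comparisons by edgeR or by the Wald test of DESeq2. With COPB2 shRNA 1 the share of all genes called was 0.00699% in ER:RAS cells with DMSO, 0.14% with 4OHT, 0.00676% in IMR90 cells with DMSO and 0.00676% with bleomycin. For shRNA 2 these shares were 0.00699%, 0.224%, 0.00676% and 0.0744%. At an unadjusted p under 0.05, the count of members was 1 with shRNA 1 (FOXF1 with 4OHT), 2 with shRNA 2 in 4OHT-treated cells (TBX2 and FOXF1) and 1 with shRNA 2 in bleomycin-treated cells (TBX4), and 0 in the other 5 comparisons. Over all genes, 462 of 14297 passed that limit with 4OHT and shRNA 1, 640 of 14297 with 4OHT and shRNA 2, and 997 of 14783 with bleomycin and shRNA 2. With the replicate number as a block shared by all IMR90 groups, no member was called. That fit called 3 and 28 of 14783 genes with bleomycin and shRNA 1 and 2. The count of members at the unadjusted limit was then 2 with shRNA 1 and 3 with shRNA 2 in bleomycin-treated cells. It was 0 with each in DMSO-treated IMR90 cells. How many of all genes passed the unadjusted limit in that fit was not counted, so nothing is read from these member counts. FOXF1 with 4OHT was at 274 ± 61.9 CPM in control libraries, 209 ± 42.9 under COPB2 shRNA 1 and 199.5 ± 31.3 under shRNA 2 (SD, n = 3). The differences were -0.40 ± 0.18 and -0.47 ± 0.18 (adjusted p = 1 and 0.862). TBX2 with 4OHT was at 259 ± 54.3, 198 ± 18.8 and 182 ± 24.7 CPM in the same order, with differences of -0.40 ± 0.22 and -0.52 ± 0.22. In both genes the control group held 1 library, replicate 1, that was well above the others. TBX4 with bleomycin was at 7.997 ± 2.92 CPM in control libraries, 5.63 ± 1.62 under COPB2 shRNA 1 and 4.75 ± 0.133 under shRNA 2 (SD, n = 4), differences of -0.50 ± 0.28 and -0.75 ± 0.28 (adjusted p = 1 and 0.677). In DMSO-treated cells of both lines the fitted differences of the 10 genes ran from -1.13, for FGF7, to 0.26, for WNT2.

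The response to a knockdown was also compared between senescent and DMSO-treated cells. No member was called in any of the 4 interaction tests, in which 0% of all genes were called with edgeR, at either shRNA in either line. None of the 10 had an unadjusted p under 0.05 in these tests, and DESeq2 called none of them either. The interaction of PDGFRA, for example, was -0.50 ± 0.69 and -0.56 ± 0.69 in ER:RAS cells and -0.02 ± 0.39 and -0.38 ± 0.39 in IMR90 cells.

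The lines themselves were compared with DMSO and the control shRNA, where no member was called by edgeR and 0.346% of all genes were, with 3 members (WNT2, FGF10 and CXCL12) and 1763 of 15299 genes at an unadjusted p under 0.05. FGF10 was at 3.28 ± 1.14 CPM in ER:RAS cells (SD, n = 3) and 17.04 ± 7.17 in IMR90 cells (SD, n = 4), a difference of -2.37 ± 0.58 (adjusted p = 0.0689). WNT2 was at 30.6 ± 4.76 and 74.3 ± 8.85 CPM, a difference of -1.28 ± 0.39 (adjusted p = 0.19). For both genes every ER:RAS library was below every IMR90 library. The Wald test of DESeq2 called both lower in ER:RAS cells (adjusted p = 0.00711 for each), as did edgeR for FGF10 without IMR90 DMSO replicate 1 (adjusted p = 0.0299). CXCL12 was at 61.9 ± 17.9 and 104 ± 18.3 CPM, a difference of -0.74 ± 0.33 (adjusted p = 0.399).

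The genes next to the members were then read. Of 18 nearest protein-coding neighbours outside the set, 14 were tested with 4OHT, of which 2 were higher, 2 lower and 10 not called with the control shRNA. With bleomycin 13 were tested, of which 2 were lower and 11 not called. Over all genes 15.5% were higher and 20.2% lower with 4OHT, and 15.4% and 15.8% with bleomycin. Around PDGFRA both sides moved with 4OHT. KIT, a receptor of the same family, was at 5.02 ± 0.553 CPM with DMSO and 0.221 ± 0.248 with 4OHT (SD, n = 3), a difference of -4.48 ± 0.71 (adjusted p = 0.000146). The homeobox gene GSX2, on the other side, had 0 to 2 counts with DMSO and 17 to 30 with 4OHT (adjusted p = 3.24e-05). With bleomycin KIT was not called, at 0.45 ± 0.40 (adjusted p = 0.443). TBX3, the T-box neighbour of TBX5, was not called with 4OHT at 0.46 ± 0.21 (adjusted p = 0.0995) or with bleomycin at -0.46 ± 0.19 (adjusted p = 0.0708). NNT, a neighbour of FGF10, was lower in both, at -0.88 ± 0.32 and -0.50 ± 0.14 (adjusted p = 0.044 and 0.0075). The remaining calls with the control shRNA were MRPS30, higher with 4OHT by 0.52 ± 0.18 (adjusted p = 0.0324), and ZNF32, lower with bleomycin at -0.52 ± 0.17 (adjusted p = 0.0233). Under the COPB2 shRNAs TBX3 was at -0.34 ± 0.19 with bleomycin and shRNA 1 (adjusted p = 0.171) and was called lower with shRNA 2, at -0.62 ± 0.19 (adjusted p = 0.0126). With 4OHT ZNF32 was called lower with both shRNAs, at -0.85 ± 0.28 and -0.93 ± 0.28 (adjusted p = 0.0243 and 0.0155), as was MTHFSD, at -0.57 ± 0.21 and -0.59 ± 0.21 (adjusted p = 0.0456 and 0.0394).

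Long non-coding RNAs that share a locus with a member were measured in 4 of 6 cases. TBX5-AS1 starts beside TBX5 on the opposite strand, and the window of 300 bases of its start shares 282 bases with that of the first TBX5 start and 0 with that of the second. It was at 44.4 ± 4.65 CPM with DMSO and 18.1 ± 4.59 with 4OHT (SD, n = 3), a difference of -1.38 ± 0.25 (adjusted p = 0.000448), beside -1.71 ± 0.26 for TBX5. With bleomycin it fell from 53.8 ± 2.56 to 41.3 ± 3.77 CPM (SD, n = 4), at -0.42 ± 0.12 (adjusted p = 0.00835). FENDRR, which starts beside FOXF1 and is read away from it, fell with 4OHT, at -0.96 ± 0.16 (adjusted p = 0.000202), from 116 ± 7.13 to 63.1 ± 9.24 CPM, while FOXF1 itself was at 0.06 ± 0.18. It fell with the COPB2 shRNAs too, at -1.20 and -1.31 (adjusted p = 2.73e-05 and 1.2e-05), and was not called with bleomycin, at -0.30 ± 0.21. TBX2-AS1 was not called with 4OHT, at 0.71 ± 0.29 (adjusted p = 0.0701), and was higher with bleomycin by 0.61 ± 0.18 (adjusted p = 0.013). With bleomycin and a COPB2 shRNA it was at 0.04 ± 0.18 with shRNA 1 (adjusted p = 0.881), not called, and 0.87 ± 0.18 with shRNA 2 (adjusted p = 0.000611), called. LINC01081 had at most 14 counts in any of the control libraries and was not called. TARID and FGF10-AS1 were too low to be tested. The study's methods describe a directional library kit and strand-aware alignment, but the strand setting of the counting is not given in the sources used here, so reads from a gene and its antisense partner may be mixed where they overlap.

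Other genes of the same tissue were read in lists that were chosen with earlier results known, so their counts are a description, to be set beside the 15.5% of all genes called higher and 20.2% called lower with 4OHT and the 15.4% and 15.8% with bleomycin. Of 23 listed transcription factors of the lung mesenchyme 22 were tested with 4OHT and the control shRNA, of which 13 were lower, 1 was higher and 8 were not called. The median log2 fold change was -1.16, beside -0.08 over all genes. HOXA2, a homeobox gene of anterior position, was lowest at -4.84 ± 0.52 (adjusted p = 3.51e-06), from 8.66 ± 2.74 to 0.314 ± 0.0484 CPM. HOXA5, which patterns the lung mesenchyme, fell, at -3.07 ± 0.24 (adjusted p = 1.32e-07), from 44.03 ± 1.86 to 5.69 ± 2.18 CPM. GATA6, a zinc finger factor, fell, at -3.06 ± 0.27 (adjusted p = 4.23e-07). The nuclear receptor NR2F1 fell, at -2.85 ± 0.16 (adjusted p = 4.26e-09), from 162 ± 18.5 to 23.99 ± 0.875 CPM, and the HOX cofactor MEIS1 at -2.63 ± 0.25 (adjusted p = 1.08e-06). The single factor that rose was GLI1, a hedgehog target, at 1.18 ± 0.28 (adjusted p = 0.00393) from a low level. With bleomycin the same list gave 13 lower, 1 higher and 8 not called of 22 tested, with a median of -0.67 beside -0.01. The largest were PRRX1 at -1.85 ± 0.29 (adjusted p = 4.52e-05), TWIST1 at -1.47 ± 0.13 (adjusted p = 5.55e-08), MEIS1 at -1.36 ± 0.27 (adjusted p = 0.000457), GATA6 at -1.28 ± 0.25 (adjusted p = 0.00037) and GLI3 at -1.25 ± 0.23 (adjusted p = 0.000271). FOXL1, a forkhead gene near FOXF1, was the one called higher, at 0.48 ± 0.14 (adjusted p = 0.0122).

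Receptors and partner ligands of the member signals moved in both directions. With 4OHT 21 of 24 were tested, of which 5 were higher, 7 lower and 9 not called, with a median of -0.56. CXCR4, the receptor of CXCL12, rose from 0.177 ± 0.178 to 10.6 ± 1.82 CPM (adjusted p = 4.17e-06) while its ligand was almost without reads. The second CXCL12 receptor, ACKR3, had 1 to 3 counts with DMSO and rose to 1.55 ± 0.181 CPM (adjusted p = 0.00105). Among the frizzled receptors for WNT ligands, FZD8 rose from 1.76 ± 0.4296 to 52.6 ± 12.1 CPM (adjusted p = 1.51e-08), whereas FZD2 and FZD7 fell, at -3.79 ± 0.23 and -2.60 ± 0.18 (adjusted p = 9.42e-09 and 3.39e-08). In the PDGF family PDGFD fell, at -5.90 ± 0.82 (adjusted p = 4.78e-05) and PDGFB rose from 0.307 ± 0.157 to 6.97 ± 0.323 CPM (adjusted p = 4.07e-06). FGFR2, the receptor of FGF10 and FGF7, had at most 1 count in any ER:RAS library with DMSO and the control shRNA and was not tested. With bleomycin 6 were higher, 7 lower and 8 not called of 21 tested, with a median of -0.14. PDGFD at -2.96 ± 0.55 (adjusted p = 0.000264), PDGFRB at -1.19 ± 0.28 (adjusted p = 0.0021), FZD8 at 2.33 ± 0.31 (adjusted p = 6.38e-06), ACKR3 at 2.55 ± 0.91 (adjusted p = 0.0352) and CXCR4 at 2.63 ± 0.73 (adjusted p = 0.00803) were the 5 largest. CXCR4 reached 0.361 ± 0.0299 CPM there, against 10.6 ± 1.82 with 4OHT, and whether these responses differ was not tested.

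Of 19 hedgehog, BMP and retinoic acid genes, which act upstream of or beside the members in lung mesenchyme, 16 were tested with 4OHT and 4 fell, 1 rose and 11 were not called (median -0.34), where 20.2% of all genes were lower and 15.5% higher. BMP4 fell, at -4.41 ± 0.28 (adjusted p = 1.36e-08), the hedgehog transducer SMO at -3.30 ± 0.36 (adjusted p = 4.64e-06) and the receptor PTCH1 at -2.36 ± 0.35 (adjusted p = 8.46e-05). The ligand SHH, with 0 to 6 counts with DMSO, rose to 5.96 ± 0.992 CPM (adjusted p = 7.32e-06). With bleomycin 9 of 18 tested fell, 4 rose and 5 were not called (median -0.63), among them BMP4 at -1.90 ± 0.34 (adjusted p = 0.000175). Of 14 markers of lung fibroblast subtypes 9 were tested with 4OHT, and 7 fell, 1 rose and 1 was not called (median -1.98). MFAP4, a matrix fibril gene, fell, at -5.52 ± 0.39 (adjusted p = 4.2e-08), and SERPINF1 at -4.14 ± 0.38 (adjusted p = 6.47e-07). With bleomycin 3 fell, 3 rose and 5 were not called of 11 tested (median 0.49), and MFAP4 again fell, at -3.73 ± 0.29 (adjusted p = 6.24e-09).

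General fibroblast markers also changed. With 4OHT 8 of 16 fell, 2 rose and 6 were not called (median -0.80), with the proteoglycan DCN at -7.32 ± 0.29 (adjusted p = 2.68e-10), FBLN1 at -6.98 ± 0.39 (adjusted p = 4.32e-09) and COL3A1 at -4.79 ± 0.28 (adjusted p = 7.42e-09) lowest, and COL6A2 and VIM higher. With bleomycin 13 fell, none rose and 3 were not called (median -1.10), with FBLN1 at -3.94 ± 0.42 (adjusted p = 5.64e-07) lowest. Markers of other cell types moved as well. The 6 smooth muscle and pericyte markers summed to 562 to 823 CPM with DMSO and 404 to 464 with 4OHT, and 4 fell and 2 rose. The 5 endothelial markers summed to 15.9 to 17.9 CPM with DMSO and 11.8 to 15.8 with 4OHT, and of the 4 tested 3 rose and TEK fell. The 5 leukocyte markers summed to 17.2 to 40.3 CPM with DMSO and 110.0 to 120.6 with 4OHT, nearly all of it CD68, while PTPRC and CD3E were too low to be tested. The 9 epithelial markers summed to 154 to 223 CPM with DMSO and 52.8 to 198 with 4OHT, of which 2 of 4 tested fell. Of 4 mesothelial markers 1 was tested with 4OHT and not called, and of 10 positional genes 2 were tested and 1, PITX1, fell. With bleomycin the numbers that rose and fell were 1 and 0 of 5 epithelial, 2 and 1 of 4 endothelial, 2 and 0 of 3 leukocyte, 1 and 3 of 6 smooth muscle, 1 and 0 of 1 mesothelial and 0 and 0 of 2 positional genes. The control libraries with bleomycin summed to 58.98 to 98.4 CPM for the leukocyte list (DMSO 13.3 to 29.6), 311 to 500 for smooth muscle (412 to 828), 8.62 to 34.3 for endothelial (23.9 to 35.95) and 68.3 to 201 for epithelial markers (87.2 to 186). The part of these lists in the results of the 10 genes was not tested.

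**Figure D4:**
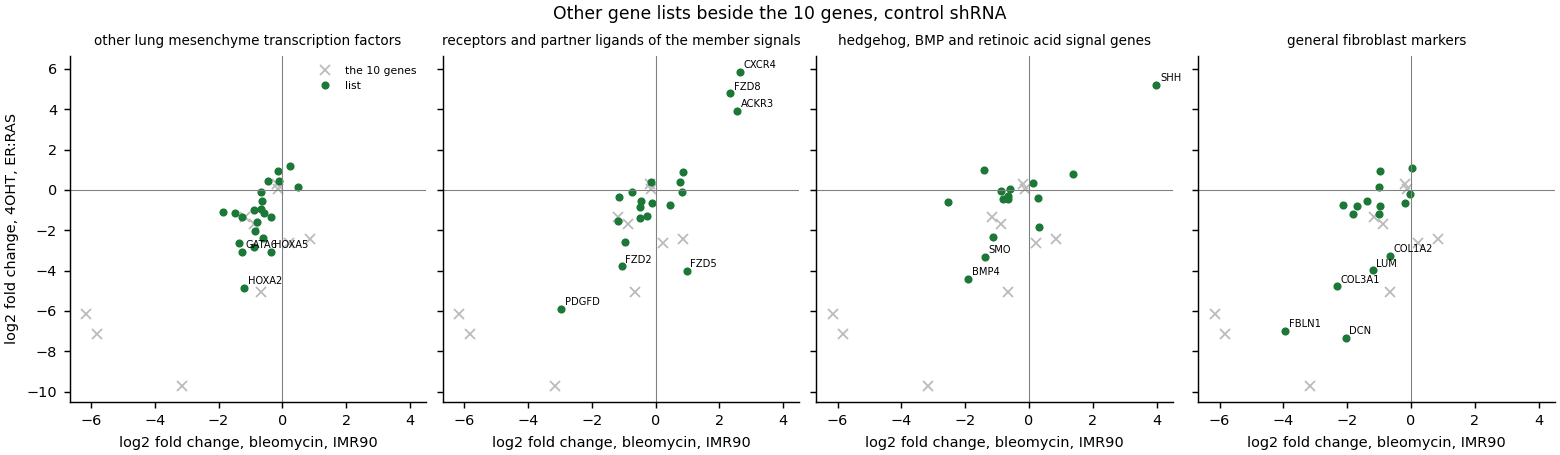
Log2 fold change with 4OHT in ER:RAS cells (vertical axis) against that with bleomycin in IMR90 cells (horizontal axis) for genes tested in both, control shRNA, in 4 lists (green points), beside the 10 identity genes (grey crosses, with bounds or count ratios where a 4OHT group had 3 or fewer counts). CXCR4, FZD8 and SHH lie at the upper right, and HOXA2, PDGFD, BMP4 and DCN lie low, where WNT2, FGF10 and CXCL12 also lie.

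For each member the genes whose level followed it most closely were found by Pearson correlation over the 12 group means of log2 CPM, among 15299 tested genes. These values are a description over 12 points that share lines and treatments. DES, a muscle intermediate filament gene, and the elastin gene ELN followed WNT2 at r = 0.998 and 0.997. MEGF6 and the complement inhibitor SERPING1 followed CXCL12 at 0.998 and 0.997, and CNKSR3 and MEIS1, which is in the list of factors above, followed TBX5 at 0.998 each. MARCHF8 and PGM5P4 followed TBX4 at 0.998 and 0.997, and LYRM9 and APBB3 followed TCF21 at 0.994 and 0.992. FGF10 was followed by IL17RD and SDC2 at 0.992 and 0.991, FGF7 by CYP1B1 and ATP8B4 at 0.988 and 0.987, and PDGFRA by PRSS35 and SGCD at 0.995 each. The likeness was looser for FOXF1 with BOLA1 and IP6K2 at 0.980 and 0.967 and TBX2 with ADA and LMF1 at 0.9497 and 0.947. With Spearman correlation in place of Pearson, 1 of these 20 pairings, APBB3 with TCF21, was found again.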

How the data were processed

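RNA of 42 libraries was sequenced by the study. The authors deposited 1 table of whole-number counts per gene symbol, not normalized, with all columns mapped to a sample and 0 columns unused. The study's methods name Tophat on hg19, and its reporting summary names HTSeq. The submitters' processing notes name STAR 2.7.8a, DRAGEN, DESeq2 1.32.0 and hg38, so the aligner and build behind the counts were not settled. Total counts were 13148194 to 23597310 per library.

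Counts were tested in R 4.3.3 with the quasi-likelihood test of edgeR 4.0.16 (TMM, filterByExpr, robust fit, Benjamini-Hochberg adjustment over all genes tested, calls at an adjusted p under 0.05), in 1 fit for ER:RAS libraries, 1 for IMR90 libraries and 1 for all 42. Values after ± are SE for log2 fold changes and SD for levels. The SE is the absolute log2 fold change divided by the square root of the F statistic of its test. Log2 CPM used a prior count of 2, and levels per kb used the exon union of a gene. Where a group had no count in any library, a bound was computed against 3 counts per library, and intervals are exact at 95% and cover counting error only. The fits were tested on simulated data. Groups came from the sample labels.

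The 10 genes and the gene lists were chosen with earlier results of these data known. List genes were named as the called genes of largest change, up to 5 in a list, and further members of a list were named after their values were seen (FZD2, FZD7, GLI1, FOXL1, ACKR3 with 4OHT, COL6A2, VIM, TEK and the marker genes). Some list genes are not reported here. Alternatives were DESeq2 1.42.0 (its Wald test, and its size factors in the edgeR fit), all genes with a count kept, a fit on only the groups compared, a block for the replicate number, a log2 limit of 1, and leaving out each library. Leaving out replicate 4 in all IMR90 groups was chosen after seeing the data. The labels number replicates alike in every group. Deviations from the group means of same-numbered libraries correlated at over 0.1 in every pair for some comparisons. These were 4OHT against DMSO with COPB2 shRNA 1 (0.405 to 0.755) and shRNA 2 (0.459 to 0.766). The others were both knockdowns in IMR90 cells with DMSO (0.106 to 0.787 and 0.165 to 0.707) and bleomycin (0.411 to 0.758 and 0.404 to 0.758). There, results that a block for the replicate number changed are given beside the main fit, which has no block. That block is 1 effect per number, shared by all groups of a fit. It therefore also spans groups whose same-numbered libraries did not deviate together (lowest -0.55 for 4OHT and -0.475 for bleomycin, control shRNA). Sequences and coordinates were taken from RefSeq (GRCh38.p14).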

Additional observations from a re-analysis of the deposited data

Results flagged for a closer look

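In groups of 4 libraries, 60 sets of CPM values of the 10 genes were searched for a library far from the other 3, and 9 were found. For independent, normally distributed values the limit is passed in about 1 in 20 sets, or 3. The 60 sets come from the same libraries and are not independent. The rate over all genes was not counted, so the 9 are not read as an excess in these genes. TCF21 in bleomycin-treated cells was at 244.9 CPM in replicate 4 with the control shRNA (others 41.78 to 63.4) and at 251.5 in replicate 4 with COPB2 shRNA 2 (others 63.92 to 81.34). FGF10 was at 0.6737 CPM in replicate 4 with bleomycin and the control shRNA (others 0.04785 to 0.1149). Replicate 2 with bleomycin was high in 4 sets, namely WNT2 at 2.751 CPM with the control shRNA (others 0.6897 to 1.036), WNT2 at 1.511 with shRNA 2 (others 0.4361 to 0.6177), TBX4 at 8.044 with shRNA 1 (others 4.565 to 4.989) and CXCL12 at 11.37 with shRNA 1 (others 6.988 to 7.377). In DMSO-treated IMR90 cells with shRNA 2, FOXF1 was at 215.0 CPM in replicate 1 (others 199.6 to 200.1) and FGF7 at 86.68 in replicate 3 (others 38.08 to 40.78).

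The response to 4OHT in ER:RAS cells differed from that to bleomycin in IMR90 cells in 11 tests of the difference by edgeR, on the log2 scale. With COPB2 shRNA 1 the differences were -3.80 for TBX4, -1.08 for TBX5, -2.48 for TCF21, -5.93 for WNT2, -4.16 for FGF7 and -4.64 for CXCL12. With shRNA 2 they were -3.33 for TBX4, -0.99 for TBX5, -3.30 for TCF21, -2.96 for WNT2 and -5.26 for CXCL12. The WNT2 values rest on 4OHT libraries with 0 to 2 counts and are no bound.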

How the results depend on the processing

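The number of members called stayed within 1.5 times the main count in every senescence test with a COPB2 shRNA: 7 to 8 and 7 to 9 with 4OHT, 6 to 7 and 6 with bleomycin. For ER:RAS against IMR90 cells it went from 0 to 2 with the DESeq2 Wald test and to 2 with the replicate block, and was 0 to 1 when 1 library was left out. The transcription factor list with bleomycin went from 14 called to 6 at a log2 change of at least 1, and the receptor list from 13 to 7 at that limit and to 8 with only the libraries compared. The cause was not tested. Directions turned for TCF21 with bleomycin and shRNA 1, at -0.19 with the replicate block, -0.56 without replicate 4 in all IMR90 groups and -0.63 to 0.36 when 1 library was left out. With shRNA 2, TCF21 was at -0.24 without replicate 4 and -0.31 to 0.59 when 1 library was left out, and FGF7 at -0.12 and -0.051 to 1.21. TBX2 with 4OHT and shRNA 1 was at -0.21 to 0.13 when 1 library was left out, positive without DMSO replicate 2. None of these values was called.

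Where the numbers do not pair the libraries, the replicate block added calls for TBX2 with bleomycin and shRNA 1 and for FGF7 in the model difference with shRNA 2, and for FGF10 and WNT2 between lines. Counts over all genes moved by over 1.5 times in places: with 4OHT and the control shRNA 5098 against 2911 with only the libraries compared, with bleomycin and shRNA 2 5915 against 3734, and for the model difference with shRNA 2 4274 with the block. Of the knockdown counts, 20 and 32 genes (4OHT, shRNA 1 and 2) moved to between 0 and 50 and between 0 and 76, the 11 with bleomycin and shRNA 2 to between 1 and 35, and the 53 between lines to between 2 and 202. The interactions in ER:RAS cells went from 0 genes to 8 and 10 with DESeq2. Genes with fewer than 3 counts in a group limit what can be said of FGF10, WNT2 and CXCL12 after 4OHT to a bound or a wide interval.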
